A study of Saccharomyces cerevisiae with 18 samples.

Results

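The response of yeast to the secretion of α-amylase was compared between a strain without HAC1 and a strain with it, gene by gene, over 12 of the 18 arrays of the series. The members were the 3 arrays of each of 4 strains, chosen by their titles: dA (Δhac1 secreting α-amylase), dN (Δhac1 with the empty vector), WA (wild type secreting α-amylase) and WN (wild type with the empty vector). The response is the log2 signal with α-amylase minus the log2 signal with the empty vector, so it was dA minus dN in the deletion and WA minus WN in wild type. The quantity tested was the difference of responses, which is the response in the deletion minus the response in wild type, and it is positive where the deletion responded more strongly upwards.

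Total RNA from bioreactor cultures was hybridised to Affymetrix yeast arrays, with 1 array per culture. All 4 strains share the haploid host CEN.PK 113-5D, of mating type a and without a working URA3 gene, and in dA and dN the HAC1 gene was replaced by a kanMX resistance cassette. Strains dA and WA carried a high-copy p426 plasmid with the α-amylase gene of Saccharomyces kluyveri behind a synthetic leader and a constitutive promoter, while dN and WN carried the same plasmid without it. Cultures were sampled in exponential growth on glucose medium that also supplied amino acids, and the sources used here do not say whether more than 1 clone of each strain was grown.

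Hac1p drives the unfolded protein response as its transcription factor. When unfolded proteins accumulate in the endoplasmic reticulum (ER), the kinase and nuclease Ire1p splices the HAC1 message, and the Hac1p made from it induces chaperones, disulfide isomerases and other parts of the secretory pathway. A secreted foreign protein has to be folded, oxidised and glycosylated in the same compartment, so strains with and without HAC1 meet the load with different amounts of that machinery. The question of the comparison was which genes answered α-amylase differently once HAC1 was gone.

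The labels fitted the data for HAC1, whose log2 signal was 1.48 ± 0.35 in dA, 1.31 ± 0.12 in dN, 10.74 ± 0.19 in WA and 10.63 ± 0.10 in WN (SD, n = 3 each). The background of the arrays, taken as the 95th percentile of the probe sets outside the genes tested, lay between 4.38 and 4.63. The genes of mating type a MFA1, MFA2, STE2, BAR1 and AGA2 were above it on all 12 arrays. Of the genes of the opposite mating type, MF(ALPHA)2 was below it on all 12 while SAG1 was above it on all 12. MF(ALPHA)1, also of that type, was above it on all 3 arrays of dA, WA and WN and on 1 of dN. Replicates of dN were the most scattered. The SD of the residuals over all genes was 0.361 for dN replicate 3, 0.250 for dN replicate 2 and 0.155 for the dN replicate whose title has no number, against 0.180 for WA replicate 1 and 0.0768 to 0.138 for the rest. For WN replicate 1 the label gives a lysis matrix, and for all other arrays it gives glass beads. Results are therefore also given without dN replicate 3, and the counts without WN replicate 1 stand at the end.

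A total of 73 of 5449 genes (1.34%) differed in their response at a Benjamini-Hochberg adjusted p under 0.05 in limma, 27 of them higher in the deletion (0.496%) and 46 lower (0.844%). At an unadjusted p under 0.05 there were 713 genes, where 272.45 would be so if none differed. The response within each background was called for more genes: 641 genes (11.8%) differed between dA and dN, of which 322 rose (5.91%) and 319 fell (5.85%), and 261 genes (4.79%) differed between WA and WN, of which 177 rose (3.25%) and 84 fell (1.54%). Of the genes called in both backgrounds, 136 moved the same way and 9 moved opposite ways, and 15 genes of these 2 kinds were also called in the difference. Across all 5449 genes the 2 responses, which share no array, had a Pearson r of 0.507 and a Spearman rho of 0.335, given as a description, since genes are not independent replicates.

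**Figure D1:**
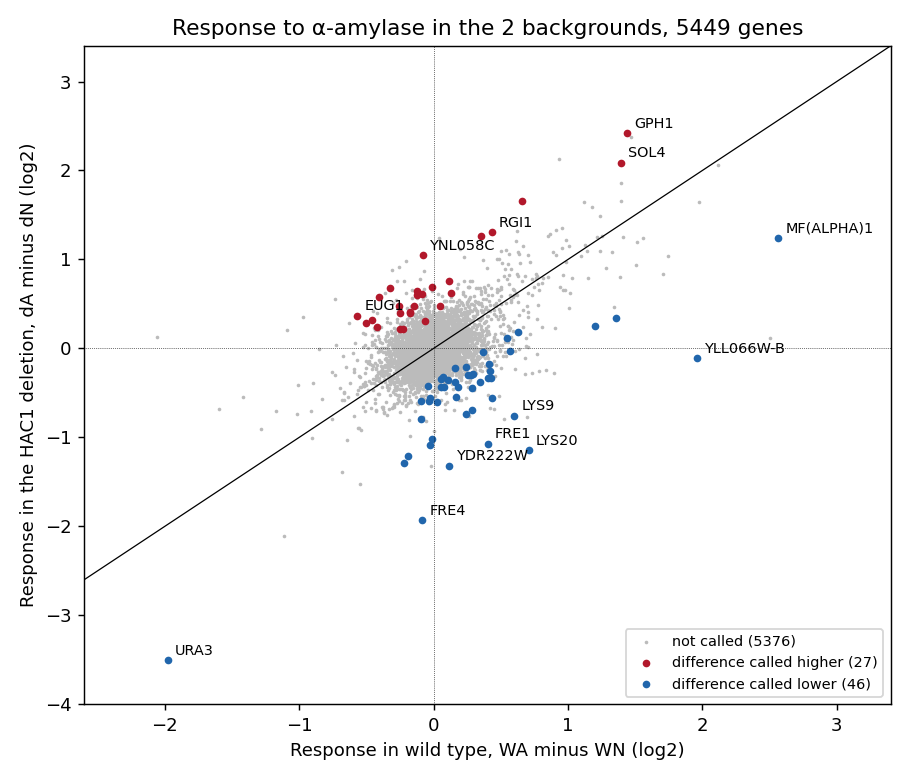
Each point is 1 of 5449 genes, placed by its response in wild type (WA minus WN, log2) on the horizontal axis and in the HAC1 deletion (dA minus dN, log2) on the vertical axis, and the line marks equal responses. The 27 genes called higher lie above the line and the 46 called lower lie below it, and 18 of the higher and 26 of the lower genes were called in the deletion but not in wild type.

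Without dN replicate 3 the count was 400 genes (7.34%), 149 higher (2.73%) and 251 lower (4.61%). All 73 genes were among them with the same sign, and the median standard error over all genes was 0.13 in place of 0.14 on the log2 scale. The count thus moved with this array, and the sign of the 73 genes did not. In both fits the spread of a gene was pooled over all 6 strains. The 12 arrays of the 4 strains alone gave 17 genes, 4 higher and 13 lower.

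The 46 genes with a lower response in the deletion did not share 1 pattern. In 26 of them the signal fell in dA against dN while WA against WN was not called, in 10 it rose in wild type only, and in 7 it fell in the deletion and rose in wild type. Both responses were called upwards for MF(ALPHA)1 and downwards for URA3, and neither response was called for PTP3. With the empty vector 30 of the 46 were higher in dN than in WN, 1 was lower and 15 were not called, where 9.49% of all genes were higher and 12% lower. With α-amylase 24 were lower in dA than in WA, 1 was higher and 21 were not called, where 13.6% of all genes were lower and 9.6% higher. The difference of responses subtracts dN minus WN from dA minus WA, so genes chosen for a low difference tend to be high in dN and low in dA, and nothing is read from these counts.

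The largest set of related genes among them makes lysine. Yeast builds lysine from α-ketoglutarate by the α-aminoadipate pathway, in which homocitrate synthase does the committed step and Lys14p activates the genes when the intermediate aminoadipate semialdehyde accumulates. Of the 8 lysine genes measured, 6 had a lower response in the deletion and none a higher one. Over all genes 0.844% had a lower response. The median difference of responses of the lysine genes was −0.88 on the log2 scale, against −0.02 over all genes. In dA against dN 7 of the 8 fell, where 5.85% of all genes did. In WA against WN 3 of the 8 rose, where 3.25% of all genes did. All 8 are described, a choice made after their values were seen.

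LYS20 (YDL182W), one of the homocitrate synthases, had log2 signals of 7.72, 7.83 and 7.92 in dA, 9.05, 8.95 and 8.90 in dN, 8.95, 8.47 and 8.28 in WA, and 7.91, 7.97 and 7.70 in WN. The dA and WN arrays overlapped and lay low, and the dN and WA arrays lay above all of them. The signal was 2.21-fold lower in dA than in dN (adjusted p = 7.96e-05) and 1.63-fold higher in WA than in WN (adjusted p = 0.00735). The difference of responses was −1.85 ± 0.19 (SE, adjusted p = 0.000158). LYS21 (YDL131W), its paralog, had a lower response as well (−0.55, adjusted p = 0.0384), but only through the deletion: it fell to 8.01 ± 0.09 in dA, against 8.60 ± 0.03 in dN, and averaged 8.33 ± 0.03 in WA and 8.37 ± 0.03 in WN (SD, n = 3 each).

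LYS9 (YNR050C), the saccharopine dehydrogenase that forms saccharopine, had the smallest adjusted p of all genes. Its log2 signals were 8.18, 8.29 and 8.26 in dA, 9.04, 8.99 and 8.97 in dN, 9.34, 9.14 and 9.03 in WA, and 8.60, 8.56 and 8.55 in WN. The dA arrays were the lowest of the 12, the WN arrays were next, and dN and WA overlapped at the top. The difference of responses was −1.36 ± 0.10 (SE, adjusted p = 3.15e-06), from a 1.69-fold lower signal in dA than in dN and a 1.52-fold higher signal in WA than in WN.

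LYS2 (YBR115C), the aminoadipate reductase, had log2 signals of 6.78, 6.91 and 6.99 in dA, 7.54, 7.47 and 7.74 in dN, 7.02, 7.07 and 7.04 in WA, and 6.78, 6.70 and 6.79 in WN, and its difference of responses was −0.98 ± 0.11 (SE, adjusted p = 0.000324). LYS1 (YIR034C), which releases lysine from saccharopine, had log2 signals of 6.38, 6.62 and 6.52 in dA, 7.17, 7.29 and 6.72 in dN, 7.05, 6.71 and 6.63 in WA, and 6.35, 6.48 and 6.25 in WN, and its difference was −0.99 ± 0.19 (SE, adjusted p = 0.0159). For both genes every dN array lay above every dA array and every WA array above every WN array, while dA overlapped with WN.

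Of the other enzymes, LYS12 (YIL094C), homoisocitrate dehydrogenase, passed with a difference of −0.72 (adjusted p = 0.0394), and LYS4 (YDR234W), homoaconitase, did not, at −0.77 (adjusted p = 0.0537). In both of these dN replicate 3 stood above the other dN arrays, at 9.50 against 9.04 and 8.98 for LYS12 and at 7.67 against 7.04 and 7.12 for LYS4. Without that array LYS4 was at −0.58 and passed (adjusted p = 0.00886), and LYS12 was at −0.55 (adjusted p = 0.00755). The activator gene LYS14 (YDR034C) averaged 5.80 ± 0.15 in dA, 5.82 ± 0.32 in dN, 5.67 ± 0.09 in WA and 5.52 ± 0.13 in WN (SD, n = 3 each), all strains overlapped, and its difference of −0.18 was not called (adjusted p = 0.757). Without dN replicate 3, 7 of the 8 lysine genes were called lower, where 4.61% of all genes were, and the median of the 8 was −0.74.

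**Figure D2:**
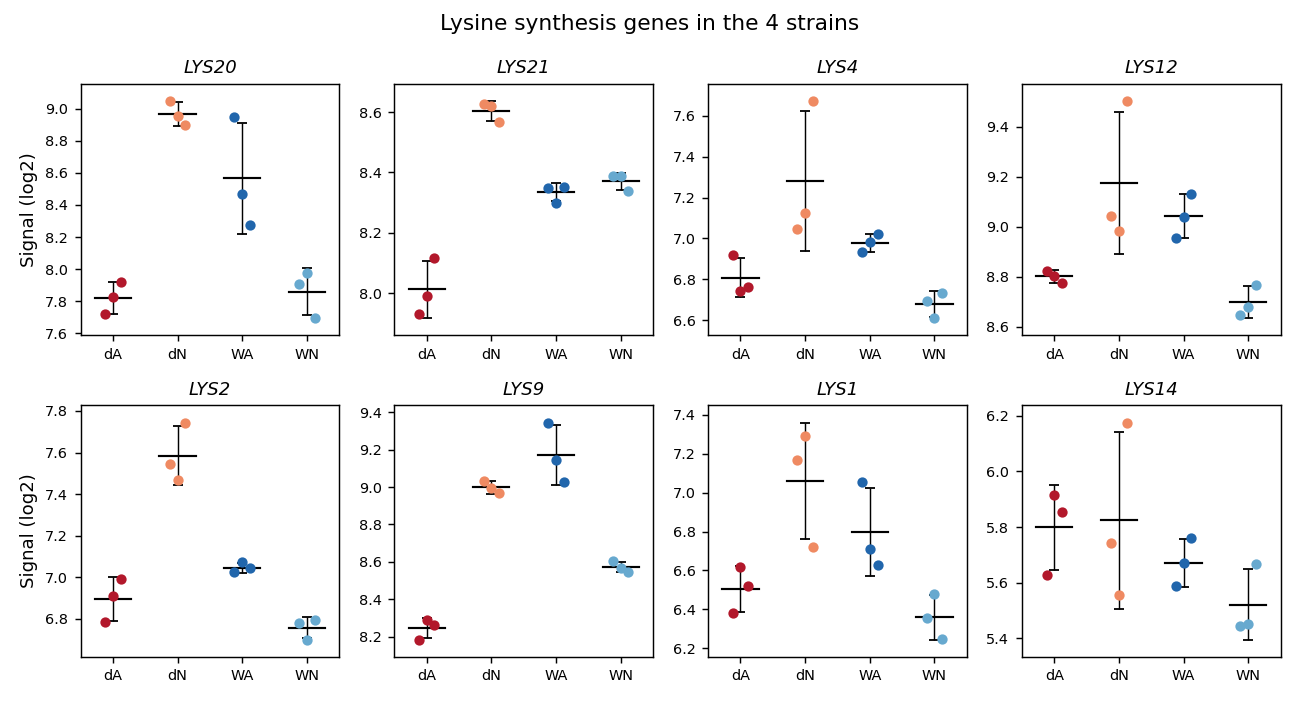
Log2 signals of 8 lysine genes on the 12 arrays, by strain (dA, dN, WA, WN). Points are arrays, the horizontal bar is the mean and the error bar the SD (n = 3). For LYS20, LYS2 and LYS1 the dA arrays lie at the level of WN and the dN arrays above both, and for LYS14 all strains overlap. Each panel has its own scale.

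Lysine was the main contributor to the amino acid genes. Over the whole list of 61 amino acid synthesis genes measured, 9 had a lower response in the deletion, none a higher one and 52 were not called, where 0.844% of all genes were lower. The list's median was −0.18, and without dN replicate 3 it was −0.08 with 11 genes called lower, where 4.61% of all genes were. Besides the lysine genes the list holds ARG1, ARG3 and SER1 among the called ones, and none of the 7 histidine, 11 branched-chain or 12 aromatic genes was called. Within the deletion 22 of the 61 fell and 1 rose in dA against dN, where 5.85% and 5.91% of all genes did. In wild type 4 rose and 1 fell in WA against WN, where 3.25% and 1.54% of all genes did.

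ARG1 (YOL058W), argininosuccinate synthase, had log2 signals of 8.53, 8.62 and 8.64 in dA, 9.81, 9.56 and 10.03 in dN, 8.16, 8.83 and 8.63 in WA, and 8.70, 8.61 and 8.87 in WN. The dN arrays stood alone above the 9 others, which overlapped. The difference of responses was −1.01 ± 0.22 (SE, adjusted p = 0.0369), from a 2.31-fold lower signal in dA than in dN, while WA against WN was −0.19 (adjusted p = 0.588). ARG3 (YJL088W), ornithine carbamoyltransferase, was at −0.70 (adjusted p = 0.0403) with a mean of 7.09 ± 0.10 in dA, 7.88 ± 0.19 in dN, 6.63 ± 0.18 in WA and 6.72 ± 0.09 in WN (SD, n = 3 each), so dA lay between dN and the 2 wild-type strains. SER1 (YOR184W), phosphoserine aminotransferase, was close to the threshold at −0.39 (adjusted p = 0.0499). ARG1 and ARG3 were each called in 4 of the 12 fits that left out 1 array, and SER1 in 3. Of the lysine genes, LYS20, LYS9, LYS2 and LYS1 were called in all 12, LYS12 in 4 and LYS21 in 2.

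Genes of iron uptake were the next set on the lower side. Yeast reduces ferric iron at the plasma membrane with Fre reductases before it is taken up, and Aft1p switches the uptake genes on when iron is short or when the iron-sulfur clusters that it senses are not made. Of 27 iron genes 3 had a lower response in the deletion, where 0.844% of all genes did, and none a higher one, with a median of −0.31. Without dN replicate 3 the median was −0.30 and 5 were called lower, where 4.61% of all genes were. In dA against dN 4 of the 27 fell, where 5.85% of all genes did. In WA against WN none of the 27 was called, where 4.79% of all genes were.

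FRE1 (YLR214W), a ferric and cupric reductase of the plasma membrane, had log2 signals of 8.88, 8.73 and 8.81 in dA, 10.15, 9.93 and 9.56 in dN, 9.01, 8.81 and 8.65 in WA, and 8.56, 8.76 and 7.95 in WN. The dN arrays again stood alone, and dA overlapped with both wild-type strains. The difference of responses was −1.47 ± 0.33 (SE, adjusted p = 0.0423), and it was called in 2 of the 12 fits that left out 1 array. AFT1 (YGL071W), the regulator itself, was at −0.55 (adjusted p = 0.0431), with 6.35 ± 0.03 in dA, 6.65 ± 0.18 in dN, 6.42 ± 0.09 in WA and 6.17 ± 0.05 in WN (SD, n = 3 each), and was likewise called in 2 of the 12 fits.

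FRE4 (YNR060W), another ferric reductase, was below background on all dA arrays, at 3.91, 3.29 and 3.32, and above it elsewhere, at 5.63, 5.17 and 5.51 in dN, 4.93, 5.23 and 5.24 in WA and 5.49, 5.09 and 5.08 in WN. It was at least 1.95-fold lower in dA than in dN, where the bound sets the dA arrays at their background level. The fitted difference of responses was −1.85 ± 0.35 (SE, adjusted p = 0.0166), and with values raised to background it was −0.87 and no longer called (adjusted p = 0.102).

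Genes that assemble iron-sulfur clusters also appeared among the called ones. This set was put together after its values were seen and has no count against a list. ISU2 (YOR226C), a mitochondrial scaffold protein, was at −0.74 (adjusted p = 0.0128), CFD1 (YIL003W), of the cytosolic assembly machinery, at −0.46 (adjusted p = 0.0279), and CIA2 (YHR122W), of the same machinery, at −0.48 (adjusted p = 0.0299). ISU2 averaged 6.62 ± 0.06 in dA, 6.95 ± 0.20 in dN, 7.26 ± 0.16 in WA and 6.86 ± 0.05 in WN (SD, n = 3 each), and so fell with α-amylase in the deletion and rose with it in wild type. CFD1 and CIA2 fell in the deletion only.

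URA3 (YEL021W), orotidine phosphate decarboxylase of uracil synthesis, is the selection marker of the plasmid in all 4 strains, and the host's own copy does not work, so the signal includes the copies on the plasmid. Its log2 signals were 8.71, 8.86 and 8.91 in dA, 12.30, 12.49 and 12.20 in dN, 10.19, 10.13 and 9.98 in WA, and 12.14, 12.13 and 11.96 in WN. The 4 strains did not overlap, and dA lay lowest. The signal was 11.3-fold lower in dA than in dN and 3.94-fold lower in WA than in WN, and the difference of responses was −1.53 ± 0.12 (SE, adjusted p = 8.09e-06). No other of the 12 pyrimidine genes was called. The arrays do not separate the number of plasmids per cell from the transcription of each, and neither was measured here.

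Of 29 nitrogen genes 2 were called, both lower, where 0.844% of all genes were lower. MEP1 (YGR121C), an ammonium permease, had log2 signals of 5.49, 5.16 and 5.38 in dA, 6.14, 6.15 and 5.96 in dN, 6.25, 6.49 and 6.50 in WA, and 6.17 on each of the WN arrays. Here dA stood alone below the 9 other arrays, and the difference of responses was −0.98 ± 0.14 (SE, adjusted p = 0.003). PUT4 (YOR348C), the proline permease, was above background on all arrays only in WA, where it was at least 1.65-fold higher than in WN, and its difference was −0.95 (adjusted p = 0.0394). The list's median was −0.10, and 5 of the 29 were called lower without dN replicate 3, where 4.61% of all genes were.

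CHA1 (YCL064C), the serine and threonine deaminase, was above background only in dN, at 4.80, 4.86 and 4.60. All 9 arrays of dA, WA and WN were at or below background, so only a bound can be given, of at least 1.21-fold lower in dA than in dN. The fitted difference was −1.05 (adjusted p = 0.016), and with values raised to background it was −0.34 and not called (adjusted p = 0.074).

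Of 32 genes of mating and haploid cells, 2 were called, both lower, where 0.844% of all genes were lower. Without dN replicate 3 there were 4 lower and 1 higher, where 4.61% of all genes were lower and 2.73% higher. MF(ALPHA)1 (YPL187W) encodes the mating pheromone of the opposite mating type and is normally silent in cells of type a. Its log2 signals were 5.40, 5.46 and 5.41 in dA, 4.23, 4.52 and 3.81 in dN, 7.43, 7.78 and 7.96 in WA, and 4.99, 5.20 and 5.31 in WN. It rose with α-amylase in both backgrounds, by 2.56 on the log2 scale in wild type (adjusted p = 2.88e-07) and by 1.24 in the deletion (adjusted p = 0.000226), and the difference was −1.32 ± 0.24 (SE, adjusted p = 0.0134). In dN only 1 of its 3 arrays was above background, so the rise in the deletion is less certain in size. With values raised to background the difference was −1.65 (adjusted p = 0.000332).

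AGA1 (YNR044W), the anchor subunit of a-agglutinin, moved opposite ways in the 2 backgrounds. Its signals were 5.32, 5.24 and 5.14 in dA, 5.79, 5.62 and 5.62 in dN, 6.04, 6.18 and 6.28 in WA, and 5.96, 5.83 and 5.85 in WN. The strains did not overlap and were ordered dA, dN, WN, WA from low to high, and the difference was −0.73 ± 0.11 (SE, adjusted p = 0.003). The pheromone receptor gene STE2, by contrast, was at 0.06 (adjusted p = 0.939), with 9.79 ± 0.11 in dA, 9.43 ± 0.38 in dN, 9.56 ± 0.19 in WA and 9.25 ± 0.12 in WN (SD, n = 3 each).

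Among oxygen-regulated genes 2 of 22 were called, both lower, where 0.844% of all genes were lower. ROX1 (YPR065W), the repressor of hypoxic genes, averaged 6.91 ± 0.11 in dA, 7.17 ± 0.03 in dN, 7.01 ± 0.06 in WA and 6.59 ± 0.10 in WN (SD, n = 3 each), so WN was the low strain, and its difference was −0.68 (adjusted p = 0.0148). AAC1 (YMR056C), a minor mitochondrial ADP/ATP carrier, averaged 5.90 ± 0.09 in dA, 5.92 ± 0.04 in dN, 6.10 ± 0.14 in WA and 5.53 ± 0.13 in WN (SD, n = 3 each), with a difference of −0.59 (adjusted p = 0.0258). For both, the change of wild type with α-amylase was called and that of the deletion was not.

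Single genes of other lists were lower too. RPA14 (YDR156W), a subunit of RNA polymerase I, was at −0.57 (adjusted p = 0.00673) and was the only 1 of 24 polymerase I and III genes called. ERG3 (YLR056W), a desaturase of ergosterol synthesis, was at −0.63 (adjusted p = 0.0341), the only 1 of 26 in its pathway. PDR16, a lipid transfer protein under Pdr1p control, was at −0.39 (adjusted p = 0.0499), the only 1 of 19 multidrug genes, and 6 of those 19 were called lower without dN replicate 3, where 4.61% of all genes were.

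Several of the lowest differences belonged to genes with no established role named here. YDR222W had log2 signals of 5.11, 5.54 and 5.32 in dA, 6.75, 6.67 and 6.51 in dN, 5.36, 5.68 and 5.60 in WA, and 5.58, 5.54 and 5.18 in WN, with dN alone above the rest, and its difference was −1.43 ± 0.17 (SE, adjusted p = 0.00044). YAR068W was at −1.07 (adjusted p = 0.0023), also with dN highest (5.01 ± 0.05 in dA, 6.30 ± 0.24 in dN, 5.50 ± 0.17 in WA and 5.72 ± 0.05 in WN, SD, n = 3 each). YER053C-A was at −1.02 (adjusted p = 0.0166) with WN lowest, at 8.82 ± 0.01 in dA, 8.48 ± 0.37 in dN, 8.73 ± 0.18 in WA and 7.37 ± 0.09 in WN (SD, n = 3 each).

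YLL066W-B had the lowest difference of all, −2.07 ± 0.24 (SE, adjusted p = 0.00044), and was above background on all arrays only in WA, at 5.36, 5.57 and 5.30. It was at least 1.93-fold higher in WA than in WN, whose arrays were at 3.11, 3.34 and 3.89. The deletion strains were near or below background, at 4.10, 4.31 and 4.11 in dA and 4.20, 4.27 and 4.39 in dN. The gene has 3 probe sets, of which the brightest was used, a set that by its type matches more than 1 transcript, and the other 2 gave −1.19 and −0.52 at means below background in every strain.

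**Figure D3:**
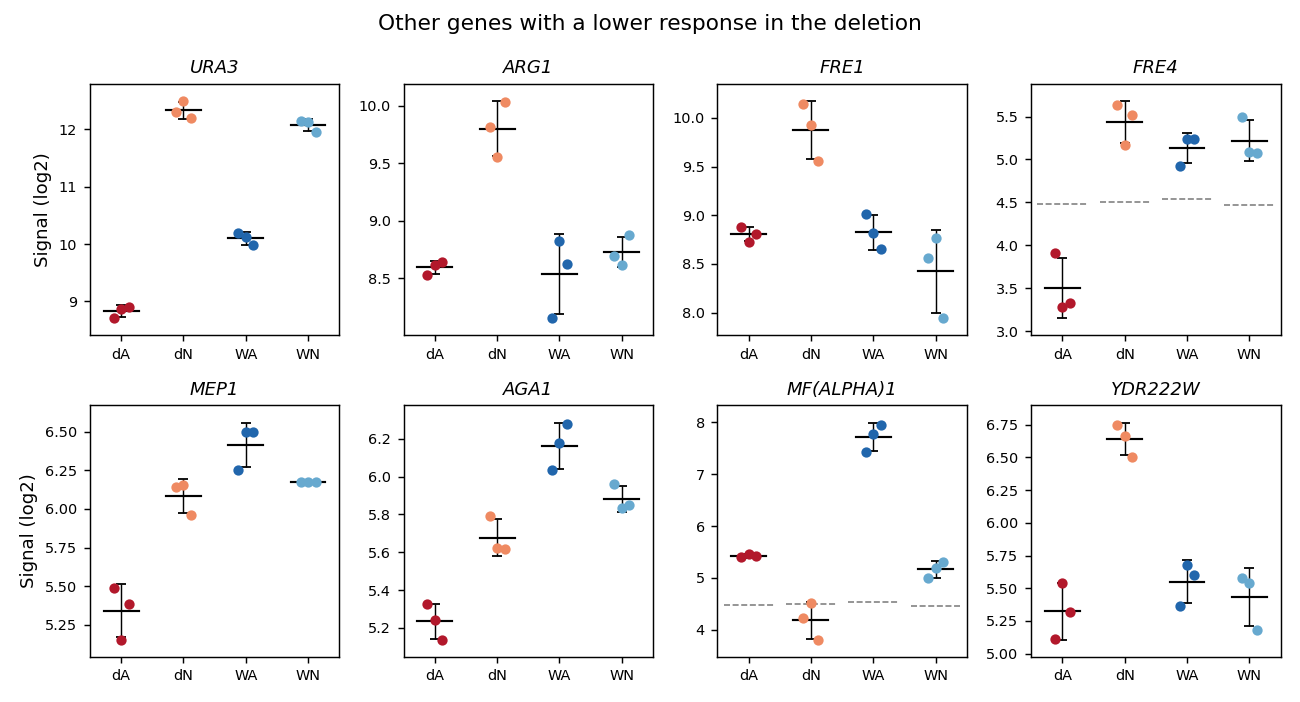
Log2 signals of 8 further genes with a lower response in the deletion, by strain (dA, dN, WA, WN). Points are arrays, bars are means and SDs (n = 3), and dashed lines show the mean background of a strain's arrays where it falls in the range. ARG1, FRE1 and YDR222W are high in dN alone, MEP1 and FRE4 are low in dA alone, and MF(ALPHA)1 is highest in WA. Each panel has its own scale.

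The 27 genes with a higher response in the deletion did not share 1 pattern either. In 24 of them the signal rose in dA against dN: wild type was not called in 18 of these, rose as well in 4 and fell in 2. The 3 others, EUG1, FCY21 and GIP1, fell in wild type only. The difference of responses contains dA minus dN, so genes chosen for a high difference tend to rise there, and nothing is read from that count. FCY21, a purine-cytosine permease homologue, was below background on all arrays of dA and dN, and its difference of 0.80 (adjusted p = 0.0364) was 0.48 and not called with values raised to background (adjusted p = 0.111). GIP1, a phosphatase subunit known from meiosis, was at 0.78 (adjusted p = 0.0417) and below background on all dN arrays. The dN level was below that of WN for 12 of the 27 and not called for 15, and dA was above WA for 16, below it for 7 and not called for 4, counts that the choice of the genes shapes in the same way as on the lower side.

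Several storage carbohydrate genes were on the higher side. Yeast stores glucose as glycogen and trehalose, and the genes for it belong to the general stress response driven by Msn2p and Msn4p. Of 20 genes of trehalose and glycogen 3 were called higher in the deletion, where 0.496% of all genes were, and none lower. All 3 belong to the 10 glycogen genes, and none of the 7 trehalose genes was called. GPH1 was called in 6 and GSY1 in 7 of the 12 fits that left out 1 array, and GAC1 lost its call with values raised to background. Of 36 Msn2/4 targets 26 rose in dA against dN, where 5.91% of all genes did, and 21 in WA against WN, where 3.25% did, and none fell in either. In the difference 4 were higher and none lower, where 0.496% of all genes were higher and 0.844% lower.

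GPH1 (YPR160W), glycogen phosphorylase, had log2 signals of 7.33, 7.36 and 7.43 in dA, 4.97, 5.29 and 4.62 in dN, 6.68, 6.85 and 6.73 in WA, and 5.17, 5.15 and 5.63 in WN. The α-amylase strains were high in both backgrounds, with dA above WA, and the 2 empty-vector strains overlapped. The signal was 5.34-fold higher in dA than in dN and 2.71-fold higher in WA than in WN, and the difference was 0.98 ± 0.20 (SE, adjusted p = 0.0256). SOL4 (YGR248W), a phosphogluconolactonase of the pentose phosphate pathway on the same list, was 4.25-fold higher in dA than in dN and 2.63-fold higher in WA than in WN, with a difference at the threshold (0.69, adjusted p = 0.0499).

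GSY1 (YFR015C), a glycogen synthase, behaved otherwise: it averaged 5.86 ± 0.13 in dA, 5.38 ± 0.02 in dN, 5.52 ± 0.08 in WA and 5.78 ± 0.13 in WN (SD, n = 3 each). It rose in the deletion (adjusted p = 0.00822), its response of −0.26 in wild type was not called, and the difference was 0.74 (adjusted p = 0.0204). GAC1, which targets a phosphatase to glycogen synthase, was fitted at 1.00 (adjusted p = 0.0148), but all of its 12 arrays were below background, from a mean of 1.83 in dN to 3.49 in dA, and with values raised to background the difference was −0.097 and not called (adjusted p = 0.598). DAK2, a dihydroxyacetone kinase fitted at 0.91, was likewise below background on all 12 arrays.

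The median of the Msn2/4 list depended on a single array. It was 0.20 over all arrays and 0.00 without dN replicate 3, where 6 of the genes were called higher and 5 lower (2.73% and 4.61% over all genes). Relative to the mean of the other dN arrays, these genes had a median of −0.75 in dN replicate 3. GPH1, GSY1 and SOL4 were called without it as well, at 0.81, 0.75 and 0.69.

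Of 20 glycolytic genes 2 were called, both higher, where 0.496% of all genes were higher. ENO1 (YGR254W), an enolase, had log2 signals of 11.64, 11.56 and 11.61 in dA, 10.99, 11.00 and 10.94 in dN, 11.87, 11.63 and 11.65 in WA, and 11.61, 11.61 and 11.54 in WN. Only dN was low, and the difference was 0.50 ± 0.10 (SE, adjusted p = 0.0166). PYK2 (YOR347C), the minor pyruvate kinase, had the same form, with 7.42 ± 0.04 in dA, 6.77 ± 0.26 in dN, 7.33 ± 0.27 in WA and 7.46 ± 0.08 in WN (SD, n = 3 each) and a difference of 0.77 (adjusted p = 0.0456). HXK1 (YFR053C), a hexokinase, was not called at 1.196 ± 0.293 (SE, adjusted p = 0.0642), with 8.73 ± 0.0025 in dA, 6.60 ± 0.11 in dN, 8.24 ± 0.08 in WA and 7.31 ± 0.58 in WN (SD, n = 3 each), and passed without dN replicate 3 (1.24, adjusted p = 0.0227). GPM1 (YKL152C), phosphoglycerate mutase, was not called at 0.20 (adjusted p = 0.192), nor was PGM2 (YMR105C), the phosphoglucomutase of the storage carbohydrate list, at 0.49 (adjusted p = 0.13).

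RGI1 (YER067W), needed for respiratory growth, rose in both backgrounds and more in the deletion, with 7.57 ± 0.05 in dA, 6.27 ± 0.23 in dN, 6.63 ± 0.14 in WA and 6.20 ± 0.13 in WN (SD, n = 3 each) and a difference of 0.87 (adjusted p = 0.0166).

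Called genes for mitochondrial proteins, put together after their values were seen and with no count against a list, went both ways. The 7 higher ones chosen for description, not a full count, lay between 0.46 and 0.72 on the log2 scale. Lower ones included ISU2, LYS12 and AAC1, described above. Others on the lower side were CTP1 (−0.72, adjusted p = 0.0246), the citrate carrier, and COX19 (−0.43, adjusted p = 0.0499), known from cytochrome oxidase assembly. COQ6 (YGR255C), a hydroxylase of ubiquinone synthesis, had log2 signals of 7.92, 7.86 and 7.84 in dA, 7.33, 7.50 and 7.35 in dN, 8.26, 8.02 and 8.10 in WA, and 8.24, 8.24 and 8.34 in WN, and its difference was 0.63 ± 0.10 (SE, adjusted p = 0.00764). HEM15 (YOR176W), ferrochelatase of haem synthesis, had 8.37, 8.40 and 8.39 in dA, 7.95, 8.09 and 7.93 in dN, 9.45, 9.20 and 9.24 in WA, and 9.43, 9.56 and 9.45 in WN, with a difference of 0.57 ± 0.10 (SE, adjusted p = 0.0101). For both, the deletion strains lay below the wild-type strains and dA lay above dN.

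The other 5 chosen on the higher side included ICP55 (0.59, adjusted p = 0.0158), an aminopeptidase of the mitochondrion. MSF1 (0.70, adjusted p = 0.0203) and SLM5 (0.46, adjusted p = 0.0131) are mitochondrial aminoacyl-tRNA synthetases. The last were MMM1 (0.71, adjusted p = 0.0158), which tethers the ER to mitochondria, and MRX1 (0.72, adjusted p = 0.0166), another mitochondrial protein. SLM5 moved opposite ways, with 7.07 ± 0.05 in dA, 6.86 ± 0.09 in dN, 6.72 ± 0.01 in WA and 6.97 ± 0.03 in WN (SD, n = 3 each). MRX1, ICP55 and YER078W-A (1.00, adjusted p = 0.0175) are neighbours in the genome, as are ENO1 and COQ6. YER078W-A was below background on all dN arrays, so its rise is given as at least 1.28-fold in dA against dN. In all, 11 called genes stood in 6 neighbouring pairs, 5 of which moved the same way.

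YNL058C had the highest difference of the 73 called genes, with log2 signals of 9.10, 8.84 and 8.87 in dA, 7.87, 8.18 and 7.60 in dN, 7.52, 7.58 and 7.51 in WA, and 7.67, 7.67 and 7.50 in WN. It was high in dA alone. HXT7 (YDR342C), a hexose transporter, and HXK1 had larger differences that were not called (1.21, adjusted p = 0.0967, for HXT7). For YNL058C the difference was 1.13 ± 0.16 (SE, adjusted p = 0.00226), from a 2.07-fold higher signal in dA than in dN and a response of −0.08 in wild type that was not called.

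Genes of the ER and the secretory pathway are the known field of Hac1p. Across 9 lists of them, from ER chaperones to COPI transport, EUG1 was the only 1 of 140 genes called (0.714%, where 1.34% of all genes were), a share too close to that of all genes to be read as a result. The medians of these lists were all above that of all genes, between 0.04 and 0.32. A positive difference without a call was seen for 12 of 13 ER chaperone genes and 22 of 24 N-glycosylation genes. The same held for 18 of 20 genes of GPI anchor synthesis and 12 of 20 of ER translocation and signal peptidase. Over all genes 2511 of 5449 had a positive difference, and these counts were not tested. For the chaperone genes the median response was 0.03 in the deletion and −0.29 in wild type. These medians were 0.02 and −0.16 for N-glycosylation and 0.01 and −0.18 for GPI anchor synthesis. For the disulfide genes they were 0.20 and −0.13. The levels themselves were far apart between the backgrounds in some of these lists and not in others. Over the chaperone genes the median log2 difference was −1.08 for dA against WA and −1.38 for dN against WN. Over the N-glycosylation genes these medians were −0.06 and −0.20, and over the genes of GPI anchor synthesis −0.02 and −0.09.

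EUG1 (YDR518W), a protein disulfide isomerase homologue, had log2 signals of 6.83, 6.76 and 6.71 in dA, 6.22, 6.28 and 6.72 in dN, 8.22, 8.07 and 8.32 in WA, and 8.82, 8.73 and 8.76 in WN. It was 1.48-fold lower in WA than in WN (adjusted p = 0.00994), and dA against dN was 0.37 (adjusted p = 0.0521), where dN replicate 3 was the only dN array at the level of dA. The difference of responses was 0.93 ± 0.16 (SE, adjusted p = 0.0117), and without that array it was 1.09 (adjusted p = 0.000142).

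The other isomerase and oxidase genes had positive differences that were not called. KAR2 (YJL034W), the ER Hsp70 chaperone, was at 0.39 (adjusted p = 0.112), with 10.80 ± 0.13 in dA, 10.53 ± 0.05 in dN, 12.02 ± 0.11 in WA and 12.14 ± 0.03 in WN (SD, n = 3 each). PDI1 (YCL043C), the main isomerase, was at 0.21 (adjusted p = 0.579), and MPD2 (YOL088C), another isomerase, at 0.32 (adjusted p = 0.316). MPD1 (YOR288C), also an isomerase, was at 0.49 (adjusted p = 0.14) and passed without dN replicate 3 (0.63, adjusted p = 0.0046), and ERO1 (YML130C), the oxidase that supplies the isomerases, was at 0.40 (adjusted p = 0.356). These p-values do not show that the responses were equal.

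**Figure D4:**
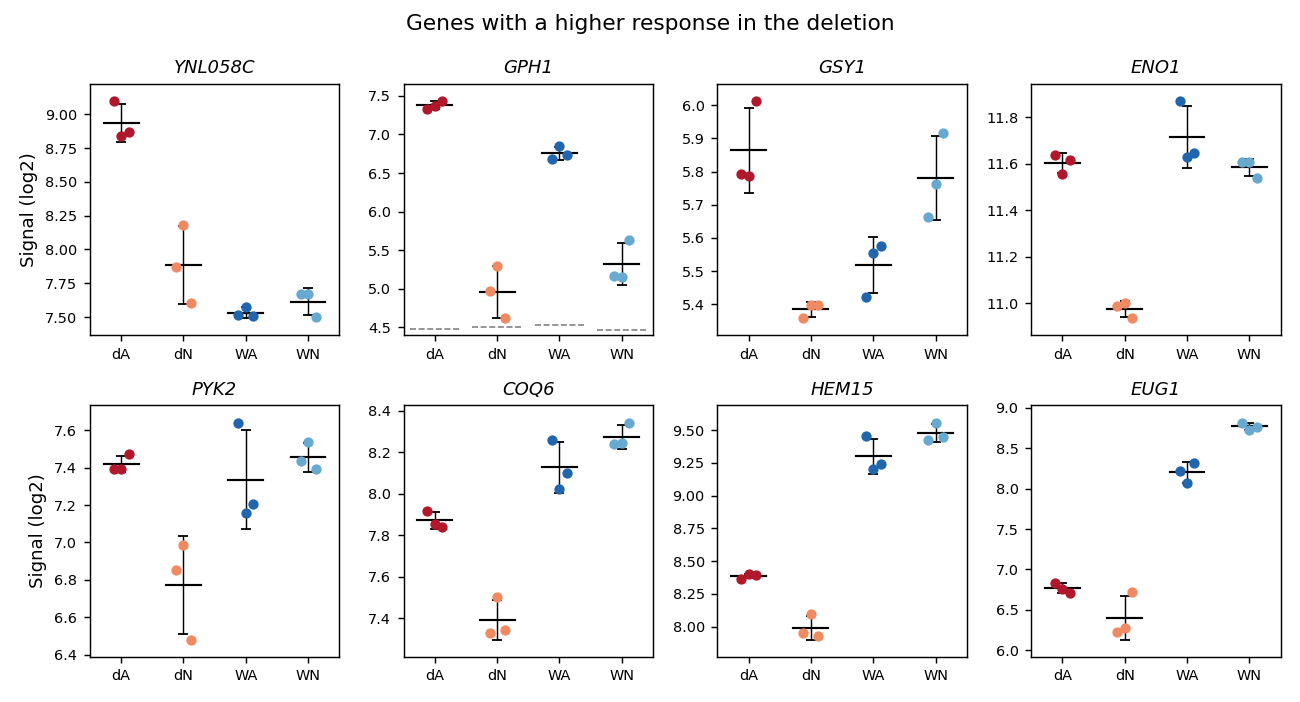
Log2 signals of 8 genes with a higher response in the deletion, by strain (dA, dN, WA, WN). Points are arrays, bars are means and SDs (n = 3), and dashed lines show the mean background of a strain's arrays where it falls in the range. ENO1 and PYK2 are low in dN alone, YNL058C is high in dA alone, and EUG1 is lower in WA than in WN. Each panel has its own scale.

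Beyond these genes the lists were quiet. Of the 46 lists 31 had no gene called, and 43 of the 73 called genes were in no list. Some medians without a called gene followed dN replicate 3. Of 94 ribosome biogenesis genes 93 had a negative difference and none was called, with a median of −0.30. In dN replicate 3 these genes lay 0.81 above the other dN arrays in the median, and without it the list's median was −0.04. Purine and one-carbon genes had a median of −0.22 over all arrays and of 0.01 without that array.

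Other lists gained calls without dN replicate 3, where 2.73% of all genes were higher and 4.61% lower. Of 57 genes of the mitochondrial ribosome none was called over all arrays (median 0.16), and 16 were called higher without it (median 0.34). Of 18 genes of peroxisomes and β-oxidation none was called over all arrays (median −0.30), and 7 were called lower without it (median −0.42). Of 23 genes of G2 and mitosis none was called over all arrays (median 0.16), and 6 were called higher without it (median 0.34). The part that dN replicate 3 or its culture played in these values was not tested.

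**Figure D5:**
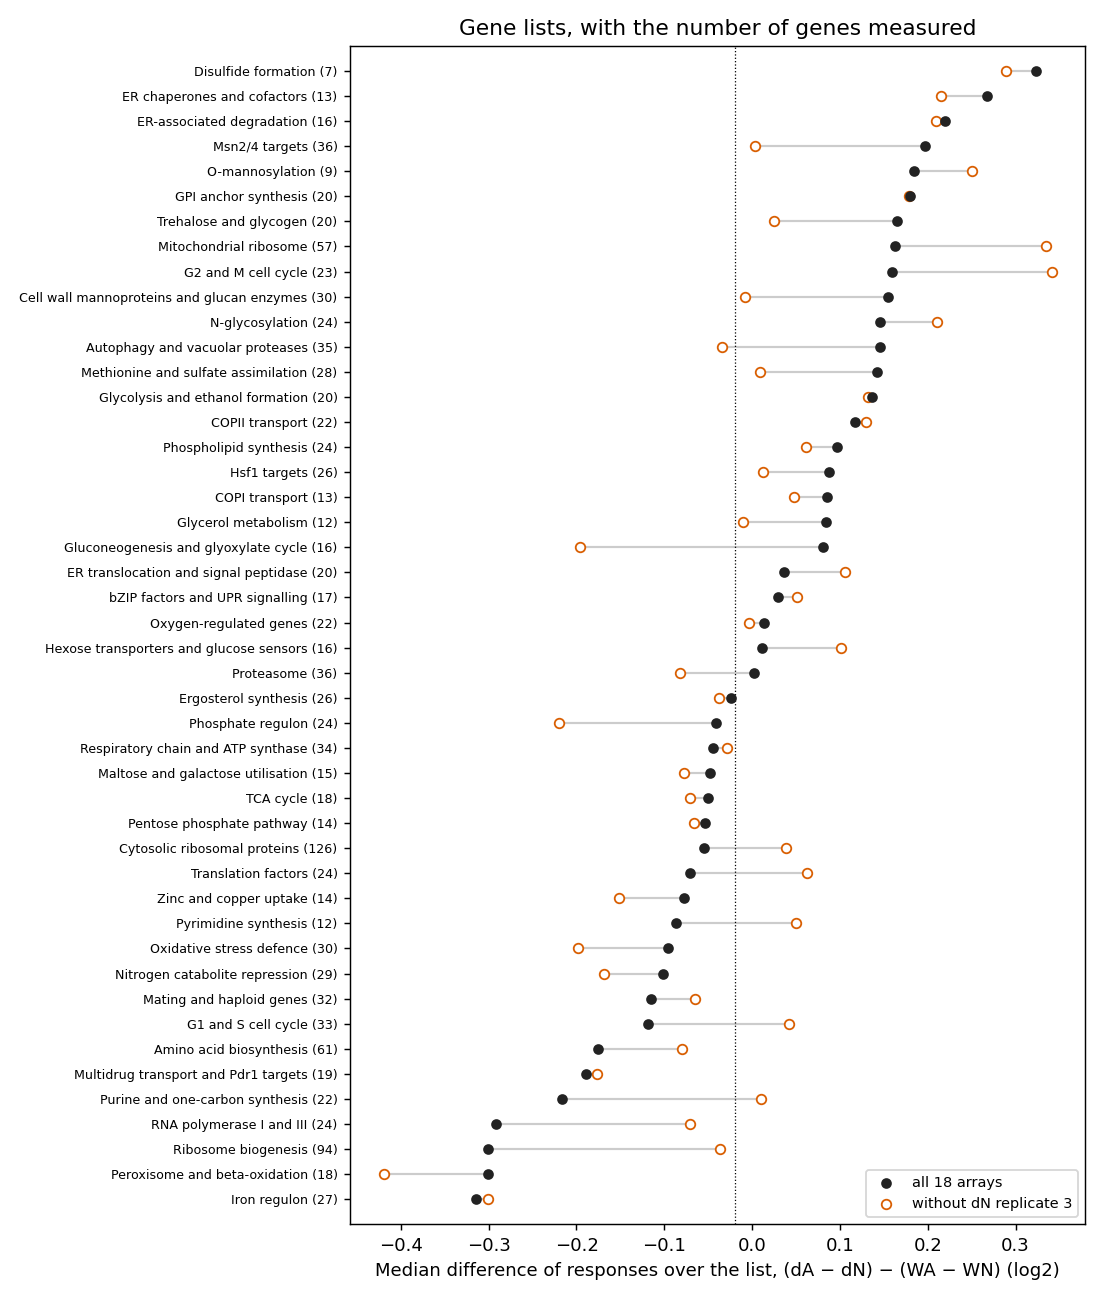
Median difference of responses (log2) of 46 gene lists, with the number of genes measured in brackets. Filled points use all arrays, open points leave out dN replicate 3, and the dotted line is the median of all 5449 genes. Iron genes stayed near −0.31 under both, ribosome biogenesis moved to −0.04 and the mitochondrial ribosome to 0.34 without the array.

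Calls near the threshold moved with single arrays. Leaving out 1 of the 12 arrays at a time gave between 28 genes (without WA replicate 2) and 400 (without dN replicate 3), and 26 of the 73 genes were called in every one of these fits. On the lower side these were AGA1, ISU2, LYS1, LYS2, LYS9, LYS20, MEP1, MF(ALPHA)1, MOG1, ROX1, RPA14, SPT8, URA3, YAR068W, YDR222W and YLL066W-B. On the higher side they were AYR1, COQ6, DSF1, EUG1, FDC1, GAC1, HEM15, LPP1, SLM5 and YNL058C. Of these, DSF1 and GAC1 were below background on all 12 arrays, and neither was called with values raised to background. Without WN replicate 1, the array with another lysis label, 42 genes were called, 21 higher and 21 lower.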

How the data were processed

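The comparison rests on 12 of 18 Affymetrix arrays, each hybridised with RNA of 1 bioreactor culture. The deposited values are log2 signals. The authors corrected the background as in RMA, using perfect-match probes, normalized the arrays by qspline and summarised each probe set by median polish. No further scaling was applied here, and because the arrays were scaled to each other by the authors, global shifts of mRNA content cannot be seen. The p-values rest on a spread between cultures that was pooled over all 6 strains (n = 3 each), including strains not compared here. A pooled spread does not follow the larger scatter of dN, and the small number of arrays limits the precision.

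Of 10928 probe sets, 5498 matched a gene of S. cerevisiae through the platform annotation and RefSeq, 3683 were unnamed, and 1746 named after genes outside that reference were left out. This gave 5449 genes. Where a gene had several probe sets (47 genes), the one with the highest mean was taken. The 95th percentile of the other 5430 probe sets set the background of each array. Where a strain was at or under it on all its arrays, the fold is a bound against that level.

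Strain means were estimated for all 6 strains at once in limma 3.58.1 (R 4.3.3), with variances moderated by empirical Bayes on 12 residual degrees of freedom. The contrast was (dA − dN) − (WA − WN), and p-values were adjusted by Benjamini-Hochberg over the 5449 genes. The procedure was tested on simulated data. There each gene had the same spread on all arrays, so a scattered array such as dN replicate 3 was not covered.

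The rule for names covered the 12 highest and 12 lowest differences among called genes with at least 1 of the 4 strains above background on all 3 arrays, the genes HAC1, URA3, KAR2, PDI1, EUG1, MPD1, MPD2 and ERO1, and up to 4 genes ranked by adjusted p of each list described. Not all of these are named. All other genes were named after their values were seen. The 46 lists (1215 of 1243 names matched) come from textbook knowledge. The members, lists and rules were chosen with earlier results of these data known. Lists are described by counts and medians, with no set test.

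Alternatives were the 12 arrays alone, every probe set, a filter on dim genes, quantile and median scaling, an intensity trend or robust step in the variance prior, array weights, other thresholds, a block for the replicate number, and the omission of each array. Raising values to background and omitting WN replicate 1 together with dN replicate 3 were added after seeing the data. Promoter and protein sequences were not analysed here.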

Additional observations from a re-analysis of the deposited data

Results flagged for a closer look

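The response to α-amylase differed between the HAC1 deletion and wild type for 73 genes in the test of the difference itself, and each of these is listed by its pattern with its log2 difference of responses in brackets.

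Among the lower ones, 26 genes fell in dA against dN while WA against WN was not called. These were FRE4 (−1.85), FRE1 (−1.47), YDR222W (−1.43), YAR068W (−1.07), CHA1 (−1.05), ARG1 (−1.01), PEX21 (−1.002), LYS1 (−0.99), MEP1 (−0.98), LYS12 (−0.72), CTP1 (−0.72), ARG3 (−0.70), ERG3 (−0.63), MOG1 (−0.62), AFT1 (−0.55), LYS21 (−0.55), SPT8 (−0.53), YER137C (−0.53), TUB4 (−0.52), SWM2 (−0.50), CIA2 (−0.48), CFD1 (−0.46), PDR16 (−0.39), SER1 (−0.39), ELP4 (−0.38) and CSL4 (−0.38).

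A further 7 genes fell in the deletion and rose in wild type, namely LYS20 (−1.85), LYS9 (−1.36), LYS2 (−0.98), ISU2 (−0.74), AGA1 (−0.73), HAP3 (−0.57) and RPA14 (−0.57). In 10 genes the rise in wild type was called and the response of the deletion was not, and these were YLL066W-B (−2.07), YER053C-A (−1.02), PUT4 (−0.95), YPL068C (−0.76), ROX1 (−0.68), AAC1 (−0.59), RBA50 (−0.58), YNL234W (−0.45), COX19 (−0.43) and YML053C (−0.41). URA3 (−1.53) fell in both backgrounds and more in the deletion, MF(ALPHA)1 (−1.32) rose in both and less in the deletion, and neither response of PTP3 (−0.45) was called.

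Among the higher ones, 18 genes rose in dA against dN while WA against WN was not called, and these were YNL058C (1.13), YER078W-A (1.00), DSF1 (0.98), DAK2 (0.91), PYK2 (0.77), GSY1 (0.74), MRX1 (0.72), MMM1 (0.71), MSF1 (0.70), LPP1 (0.65), KIN82 (0.65), COQ6 (0.63), ICP55 (0.59), HEM15 (0.57), ENO1 (0.50), VPS70 (0.45), AYR1 (0.42) and HKR1 (0.37). The 4 genes that rose in both backgrounds and more in the deletion were GAC1 (1.00), GPH1 (0.98), RGI1 (0.87) and SOL4 (0.69). SLM5 (0.46) and FDC1 (0.67) rose in the deletion and fell in wild type, and EUG1 (0.93), FCY21 (0.80) and GIP1 (0.78) fell in wild type only. Of the 73 genes, 14 had at least 1 strain at or under background on all of its arrays, and 5 of these had no strain above background on every array. With values raised to background, FRE4, CHA1, SWM2, FCY21, KIN82, DSF1, DAK2 and GAC1 were not called. SWM2 was above background on only 1 dN array and on none of the other strains. Its difference was then −0.11 (adjusted p = 0.598).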

How the results depend on the processing

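The count of genes whose response differed moved with the fit, and the sign of the 73 called genes did so only where a gene was at or near background. The 12 arrays of the 4 strains alone gave 17 genes (341 for dA against dN, 113 for WA against WN), and without dN replicate 3 that fit gave 258 (1071 for dA against dN). Array weights, which were 0.0856 for dN replicate 3 and 0.396 for dN replicate 2 but 2.82 for the other dN array, gave 949 (2276 and 1439). An adjusted p under 0.01 left 15 genes (250 and 96), an absolute log2 difference of at least 1 left 15 (57 and 36), and an adjusted p under 0.1 gave 122. Leaving out 1 array at a time gave 28 to 400 genes, 333 to 1344 for dA against dN and 97 to 520 for WA against WN; without WA replicate 2 it was 28, without WN replicate 2 it was 38, and without dN replicate 3 it was 400.

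A block for the replicate number gave 31 genes, 29 of them among the 73. Deviations of same-numbered arrays correlated between −0.56 and 0.62. Among the arrays numbered 3 the correlation was 0.54 for WN with WA, 0.62 for WN with dN and 0.62 for WA with dN. For dA replicate 3 it was 0.08 with WN, −0.0007 with WA and −0.01 with dN. Arrays of different numbers were not compared, so these values cannot show whether the numbers mark shared batches. Leaving out WN replicate 1 and dN replicate 3 together, a choice made after seeing the data, gave 324 genes (1322 for dA against dN). With values raised to background, also chosen afterwards, 65 of the 73 genes were still called, and KIN82 (−0.093) and DSF1, DAK2 and GAC1 (−0.097 each) changed sign because all or nearly all of their arrays are below background. The cause of the other shifts was not tested. A fit over all 10928 probe sets called 53 probe sets, which is not a count of genes. Quantile normalization, median centring, the variance priors and a filter on dim genes gave 67 to 73 genes. Below about 4.4 to 4.6 log2 units the arrays give no level.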
